A study of Mus musculus with 18 samples.

Results

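Eosinophils, basophils and mast cells are immune cells that carry their effector proteins in granules. They are followed here through 8 genes, which are Prg2, Epx, Cpa3, Mcpt8, Gata2, Fcer1a, Ms4a2 and Hdc. The genes were taken by symbol from a table of raw counts of 54838 genes, all 8 were found, and all 8 were among the 14181 genes that passed the filter on low counts. RNA was measured by sequencing in wild-type C57BL/6 mouse cells of 3 kinds. Suppressor cells of the myeloid lineage (MDSC), which are immature and restrain T cells, were grown from bone marrow for 5 days, sorted on CD11b, Ly6G and Ly6C, and collected a day later. The LY6C population had high Ly6C and no Ly6G, and the LY6G population had high Ly6G and intermediate Ly6C. The third kind was whole bone marrow (BM) flushed from the femurs of 3 mice, after lysis of red cells and without culture. Total RNA (T) and RNA bound to polysomes (P) were sequenced from each kind, which gave 6 groups of 3 biological replicates, numbered 2, 3 and 6 in the sorted cells and 1, 2 and 3 in BM. Culture and sorting both separate the MDSC from BM, so that their parts in any difference cannot be told apart.

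Eosinophils pack major basic protein and eosinophil peroxidase into their granules. Basophils and mast cells bind IgE through the high-affinity receptor FcεRI, whose cross-linking releases histamine, proteases and lipid mediators. GATA factors act in the development of all these cells, which arise in bone marrow from myeloid progenitors, while mast cells finish their development in tissues. Prg2 encodes major basic protein and Epx eosinophil peroxidase. Cpa3 encodes carboxypeptidase A3 of mast cell and basophil granules, and Mcpt8 a serine protease of basophils. Fcer1a and Ms4a2 encode the α and β chains of FcεRI, Hdc encodes histidine decarboxylase, which makes histamine, and Gata2 encodes a transcription factor of these lineages and of blood progenitors. Hdc and Gata2 are also expressed in other blood cells.

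Depth differed widely between groups. The libraries of total BM RNA held 19776431 to 26225431 counts, those of BM polysomes 12107504 to 17846803 and those of the sorted cells 8559897 to 21138649. Of these counts, 0.267% ± 0.0308 (SD, n = 3) fell on protein-coding genes other than Lars2 and mitochondrial genes in the total RNA of BM, and 2.96% ± 1.00 (SD, n = 3) on its polysomes. Levels are given as CPM, counts scaled by library size and by TMM factors, which moved BM far from library size alone. In BM_T number 1, of 19776431 counts, 1 CPM was worth 0.473 counts, against 102.8 in LY6C_P number 2, of 20313012 counts. Contrasts with BM depend on these factors. A level of 1 CPM was worth 0.473 to 0.611 counts in a BM total library, 1.73 to 3.51 in a BM polysomal library and 18.1 to 110.4 in a sorted-cell library. The limit that a count of 0 allows, 3 counts over a group, came to 1.91 CPM for total RNA of BM and 0.371 CPM for its polysomes. The sorted polysomal libraries numbered 6 stood apart for the eosinophil genes and are given with and without below. Summed erythroid markers stood at 207 to 351 CPM in BM total RNA and at most 0.378 CPM in any sorted library, and stromal collagen and matrix genes at 2738 to 6857 CPM against at most 5.33 CPM. Later neutrophil granule genes did not set LY6G apart from LY6C, at 709.6 to 1182 CPM against 629.6 to 3311 CPM in total RNA.

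Prg2 was far higher in BM than in the sorted cells in both fractions, and Epx was higher in BM than in LY6G cells on polysomes. Prg2 lies on chromosome 2 from 84980461 to 84983632 on the forward strand (GRCm38, with 838 exonic bases). Its levels were 150.2, 94.9 and 78.5 CPM in BM total RNA and 271, 298 and 195 CPM in BM polysomal RNA. They were 2.61, 4.10 and 7.10 CPM in LY6C total RNA and 0.879, 1.22 and 2.13 CPM in LY6G total RNA. All BM libraries lay above all sorted-cell libraries. On polysomes the sorted cells gave 2.45, 4.95 and 34.1 CPM in LY6C and 1.27, 1.20 and 11.1 CPM in LY6G, so the library numbered 6 was the highest in both populations. Even that library stayed below every BM polysomal library. The order of the group means was BM polysomal RNA (255 ± 53.6 CPM, SD, n = 3), BM total RNA (108 ± 37.6), LY6C polysomal RNA (13.8 ± 17.6), LY6C total RNA (4.60 ± 2.29), LY6G polysomal RNA (4.51 ± 5.68) and LY6G total RNA (1.41 ± 0.645), and polysomal and total RNA did not differ by the test in any kind of cell. The neighbours from different kinds of cells were not compared across fractions.

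Prg2 was lower in the sorted cells than in BM in all 4 comparisons by the edgeR quasi-likelihood test with adjustment over all genes tested. In total RNA the log2 difference was −4.56 ± 1.03 (SE) in LY6C (23.5-fold, adjusted p = 0.00396) and −6.26 ± 1.11 in LY6G (76.4-fold, adjusted p = 0.000555). It was the only one of the 8 genes called in either, where 7.4% and 9.39% of all genes tested were called lower. On polysomes the log2 difference of Prg2 was −4.21 ± 1.00 in LY6C (adjusted p = 0.00462) and −5.82 ± 1.08 in LY6G (adjusted p = 0.000602). Without the sorted-cell libraries numbered 6 the polysomal differences became −6.28 ± 0.48 and −7.80 ± 0.52 and those in total RNA −5.24 ± 0.47 and −6.89 ± 0.50. The median gene lay above 0 in these comparisons, at 1.64 and 1.63 in total RNA and 0.52 and 0.45 on polysomes, and relative to it Prg2 was lower by more, at −6.20, −7.89, −4.73 and −6.27. In bulk RNA, fewer cells of a type and less of the RNA per cell cannot be told apart. Erythroid, stromal and B cell markers fell with Prg2, the B cell sum from 55.0 to 67.1 CPM in BM total RNA to 0.183 to 5.36 CPM in the sorted libraries, and their part in the result was not tested.

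Per kilobase of exon, Prg2 was among the most abundant protein-coding mRNAs of BM, with Lars2 and mitochondrial genes left out. It ranked 7 of 11787 such genes tested in BM polysomal RNA, at a mean of 304 CPM per kilobase. In BM total RNA it ranked 12, at 129 CPM per kilobase, on 167 counts over the 3 libraries. In the sorted cells its rank ran from 620 in LY6C polysomal RNA to 4788 in LY6G total RNA. On the same scale Epx reached rank 1226 and Hdc rank 1562 in BM polysomal RNA, at 6.84 and 5.39 CPM per kilobase.

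**Figure D1:**
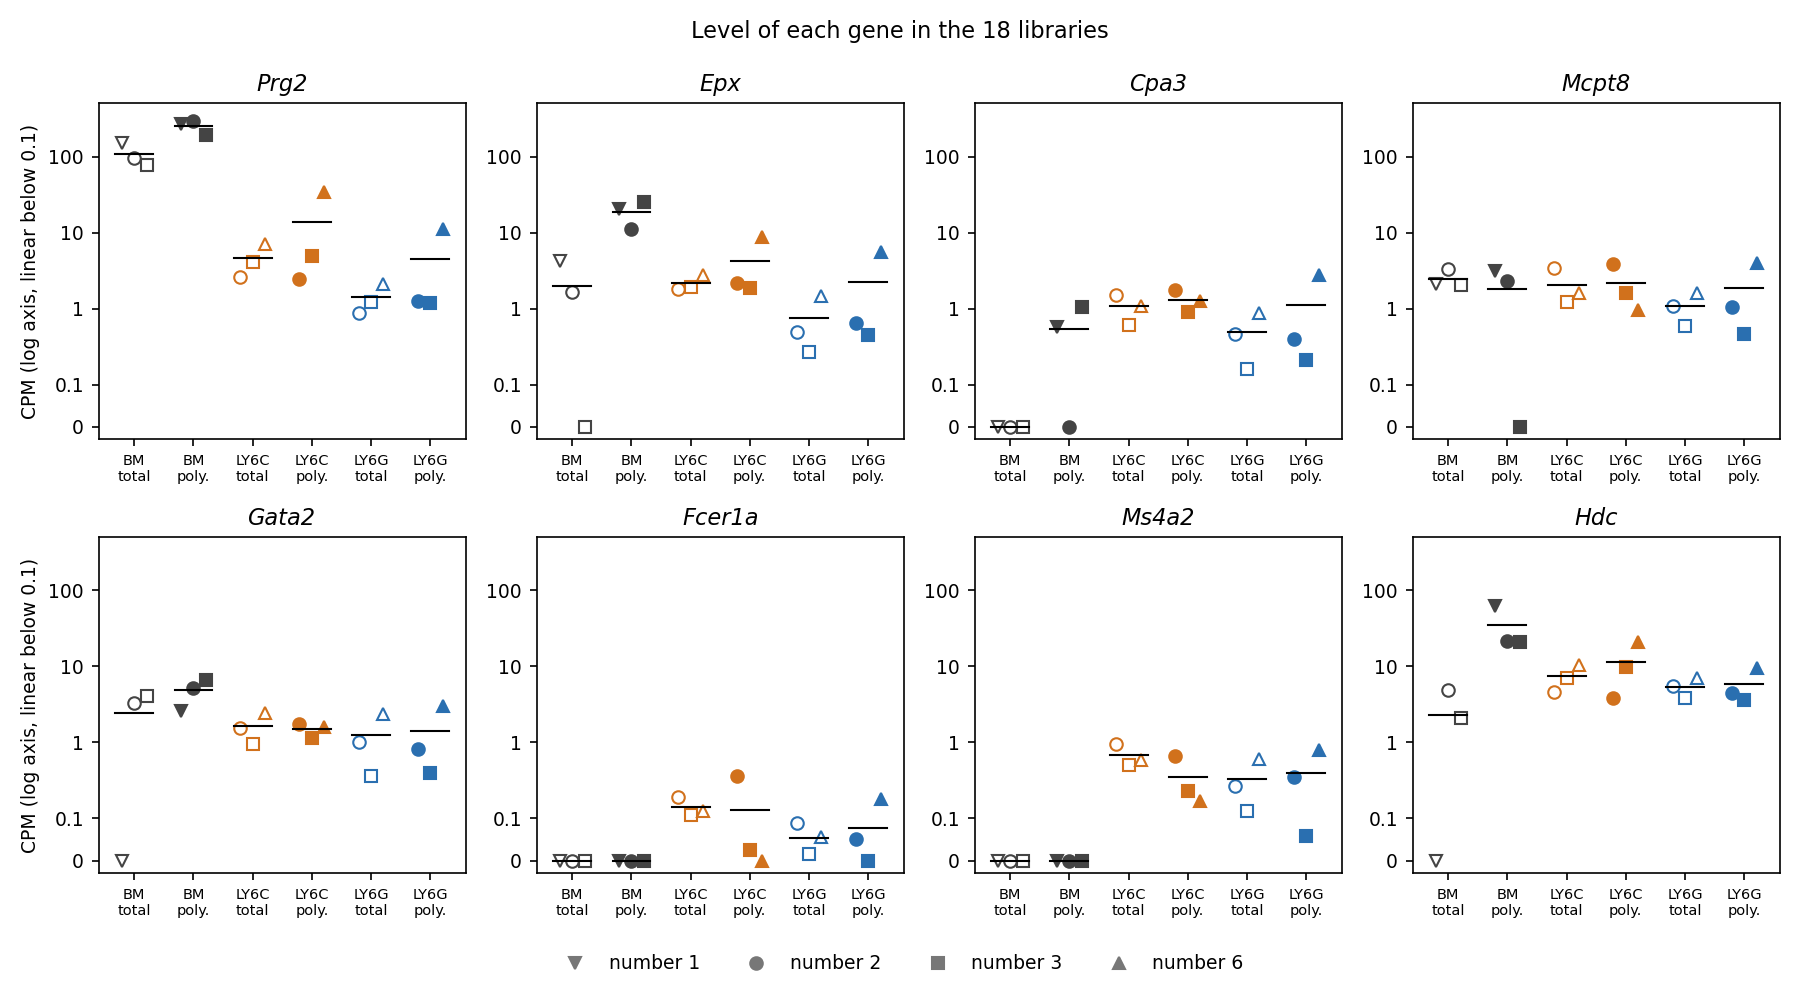
Level of each of the 8 genes in the 18 libraries in TMM-scaled CPM (log axis, linear below 0.1), with total RNA as open and polysomal RNA as filled symbols, the replicate number as the shape and the group mean as a line. Prg2 stood at 78.5 CPM or more in every BM library and at 34.1 CPM or less in every sorted-cell library, while Fcer1a and Ms4a2 had no count in BM.

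Epx, on chromosome 11 from 87864000 to 87875536 on the reverse strand (2737 exonic bases), could hardly be read in BM total RNA, where the libraries held 2, 1 and 0 counts. On BM polysomes it stood at 20.2, 11.0 and 24.9 CPM. LY6C polysomal libraries had 2.19, 1.85 and 8.68 CPM and LY6G polysomal libraries 0.651, 0.453 and 5.54 CPM, again with number 6 as the highest and with no overlap with BM. Epx was lower in LY6G than in BM polysomal RNA, by −3.09 ± 0.88 on the log2 scale (edgeR, adjusted p = 0.0111), and by −5.22 ± 0.55 without the libraries numbered 6. The difference of −2.18 ± 0.86 in LY6C did not pass the test (adjusted p = 0.0637), but passed it with the replicate number as a block (−2.44 ± 0.45, adjusted p = 0.00031) and without the libraries numbered 6 (−3.38 ± 0.50, adjusted p = 4.11e-05). In total RNA the sorted cells had 1.79, 1.94 and 2.74 CPM in LY6C and 0.489, 0.269 and 1.48 CPM in LY6G. The ratio of pooled counts to BM total RNA was 1.02 (exact 95% counting interval 0.346 to 4.98) in LY6C and 0.391 (0.132 to 1.92) in LY6G, so that a difference was not detectable at this depth.

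Prg2 and Epx did not keep the same proportion in marrow and in sorted cells. Counted within a library, where scaling between libraries cancels, there were 13.4, 27.1 and 7.80 Prg2 counts for each Epx count in BM polysomal RNA. The sorted-cell libraries held between 1.12 and 4.53, so the BM polysomal libraries did not overlap with any of the 12. Pooled over libraries, the ratio was 12.6 in BM polysomal RNA (exact 95% counting interval 10.7 to 14.8), 1263 Prg2 to 506 Epx counts in LY6C polysomal RNA (2.25 to 2.77) and 2.04 (1.85 to 2.25) in LY6G polysomal RNA. In total RNA it was 55.7 in BM (18.7 to 273, on 3 Epx counts), 1.79 in LY6C and 1.84 in LY6G. These intervals cover counting error only. The difference between the ratios was not tested. Prg2 has 838 exonic bases and Epx 2737, and the part of gene length in these ratios was not tested.

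**Figure D2:**
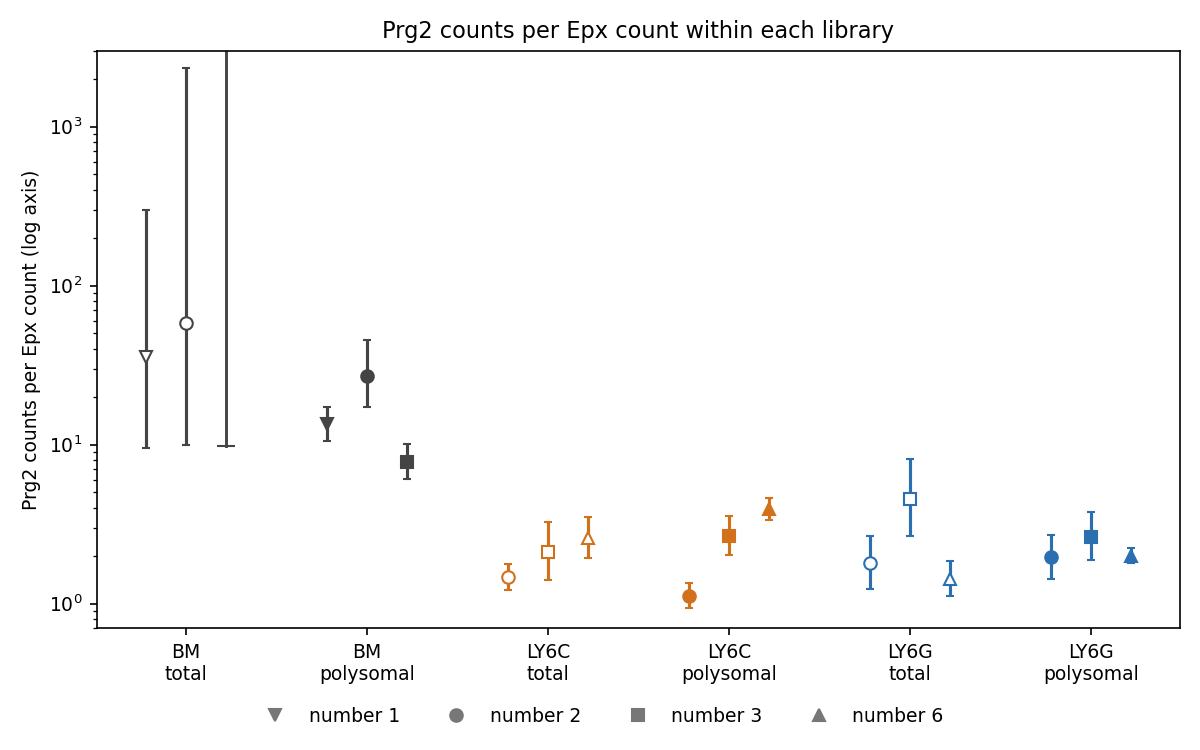
Prg2 counts per Epx count within each library (log axis), with exact 95% intervals of counting error and the replicate number as the shape. The sorted-cell libraries lie between 1.12 and 4.53, below the BM polysomal libraries at 7.80 to 27.1, and the bar with no symbol is the BM total library with no Epx count.

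The other eosinophil genes on the list were Prg3, Ear1, Ear2, Ear6, Ear10, Siglecf, Ccr3, Il5ra and Alox15, of which 6 of 9 passed the filter. Prg3, which encodes a relative of major basic protein, and Alox15, the 12/15-lipoxygenase gene, were lower in sorted cells than in BM in all 4 comparisons. They were the 2 of 6 called lower in each. Of all genes, 7.4% (LY6C) and 9.39% (LY6G) were lower in total RNA, and 11.2% and 15.3% on polysomes. Ear2, Ear6 and Ccr3 were tested too and called in none of the 4. Prg3 stood at 12.0, 10.4 and 6.67 CPM in BM polysomal RNA against 0.0876, 0.101 and 0.417 CPM in LY6C and 0.0310, 0.00964 and 0.200 CPM in LY6G. Its log2 difference on polysomes was −5.75 ± 0.91 in LY6C (edgeR, adjusted p = 7.93e-05) and −6.90 ± 0.93 in LY6G (adjusted p = 1.24e-05). The sources used here do not say how reads that match both Prg2 and Prg3 were counted. Alox15, which macrophages can also express, was lower by −3.38 ± 0.66 and −5.08 ± 0.71.

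Siglecf, which encodes a lectin of mouse eosinophils and of some macrophages, had 2 counts in BM, whose depth was far lower. Of the 4 comparisons with BM, it passed the test in LY6C polysomal RNA alone, where 20.2% of all genes were called higher. It had 1, 1 and 0 counts in BM polysomal RNA, against 395, 88 and 31 counts in LY6C, a ratio of pooled levels of 12.5 (exact 95% counting interval 3.44 to 104; edgeR, adjusted p = 0.0258). LY6G polysomal RNA held 285, 128 and 102 counts, or 2.94, 1.23 and 1.13 CPM, beside 3.84, 2.23 and 1.29 CPM in LY6C, and its difference from BM did not pass the test (adjusted p = 0.0525) except with the replicate block (adjusted p = 0.00408). Over the 6 genes tested, the list's median log2 difference was −0.74 in LY6C and −2.20 in LY6G polysomal RNA, against 0.52 and 0.45 over all genes tested. Il5ra, the α chain of the interleukin 5 receptor and a defining gene of eosinophils, had 22 counts over the 12 sorted-cell libraries and 0 in BM. The depth of BM was too low for 0 counts to show a lower level of Il5ra.

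No change from BM was called for Cpa3 or Mcpt8, the granule enzymes of basophils and mast cells, while Prss34, another basophil protease, was lower in all 4 comparisons. Cpa3 (chromosome 3, 20215620 to 20242181, reverse strand) had 0 counts in all 3 BM total libraries and 2, 0 and 3 counts in BM polysomal RNA. LY6C cells had 1.51, 0.609 and 1.08 CPM in total RNA and 1.75, 0.913 and 1.25 CPM on polysomes. LY6G cells had 0.456, 0.158 and 0.878 CPM in total RNA and 0.392, 0.212 and 2.73 CPM on polysomes. All of these total RNA levels lie below the 1.91 CPM that a count of 0 allows in BM total RNA, so a difference was not detectable at this depth. On polysomes the log2 difference from BM was 1.12 ± 1.12 in LY6C (edgeR, adjusted p = 0.465) and 0.88 ± 1.12 in LY6G (adjusted p = 0.55), and the groups overlapped.

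Mcpt8 (chromosome 14, 56082166 to 56085273, reverse strand) was the one granule protease of these 8 genes with counts in every BM total library, at 1, 2 and 1. BM polysomal RNA held 11, 4 and 0 counts, or 3.14, 2.31 and 0 CPM. The total RNA levels were 2.12, 3.27 and 2.06 CPM. LY6C levels were 3.37, 1.22 and 1.62 CPM in total RNA and 3.85, 1.60 and 0.960 CPM on polysomes. LY6G levels were 1.09, 0.586 and 1.59 CPM in total RNA and 1.05, 0.463 and 4.01 CPM on polysomes. LY6G total RNA lay below BM in all libraries, and the other groups overlapped with BM. No difference from BM passed the test, and on polysomes the log2 differences were 0.25 ± 0.89 in LY6C and 0.01 ± 0.89 in LY6G. Mcpt8 belongs to a family of similar proteases on chromosome 14, and the sources used here do not say how reads shared within that family were counted.

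Among 11 other mast cell and basophil proteases, Prss34 alone passed the filter. Prss34 encodes a serine protease of basophils. It stood at 33.9, 14.7 and 37.2 CPM in total RNA and 24.5, 47.4 and 20.4 CPM on polysomes in BM. Sorted cells had 0.444 to 2.95 CPM in total RNA and 0.164 to 5.50 CPM on polysomes, with no overlap with BM. Its log2 difference was −3.80 ± 0.93 in LY6C total RNA (edgeR, adjusted p = 0.00583) and −5.14 ± 0.97 in LY6G total RNA (adjusted p = 0.000727), and −3.60 ± 0.86 and −3.73 ± 0.86 on polysomes. The difference between the changes of Prss34 and Mcpt8 was not tested. Mcpt4, Mcpt9, Cma2, Tpsb2 and Tpsg1, proteases of mature tissue mast cells among them, had 0 counts in all 18 libraries. Mcpt1, Mcpt2, Cma1 and Tpsab1 had 4, 1, 12 and 14 counts in all, none of them in BM, whose depth was too low to show a lower level.

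The receptor chains of FcεRI had the fewest counts of the 8 genes. Fcer1a (chromosome 1, 173221284 to 173227214, reverse strand) had 98 counts in the whole series, all of them in sorted cells. It had 21, 2 and 3 counts in LY6C total RNA, 37, 1 and 0 in LY6C polysomal RNA, 8, 1 and 4 in LY6G total RNA and 5, 0 and 16 in LY6G polysomal RNA. Ms4a2 (chromosome 19, 11615523 to 11623719, reverse strand) had 396 counts, also all in sorted cells. It stood at 0.951, 0.499 and 0.582 CPM in LY6C total RNA, 0.662, 0.228 and 0.167 CPM in LY6C polysomal RNA, 0.267, 0.127 and 0.604 CPM in LY6G total RNA and 0.351, 0.0578 and 0.789 CPM in LY6G polysomal RNA. Both genes had 0 counts in the 6 BM libraries. The limit of 1.91 CPM in BM total RNA exceeds all of these levels. That of 0.371 CPM on BM polysomes exceeds all but Ms4a2 in LY6C_P number 2 and LY6G_P number 6. By group, Ms4a2 on polysomes was at least 0.95 times that limit in LY6C and 1.03 times in LY6G, at the edge of detection. The test called neither (edgeR, adjusted p = 0.184 and 0.155). For Fcer1a, and for both genes in total RNA, whether BM held less was not detectable at this depth.

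Promoter sequences are shown for the 3 genes with no count in BM total RNA (Cpa3, Fcer1a and Ms4a2), and for Epx as a gene found on BM polysomes. They are the 250 bases before the gene start in RefSeq (GRCm38.p6), written 5′ to 3′ on the strand of the gene. Capitals mark matches to forms of the sequence that GATA factors bind. The forms searched, on both strands, were AGATAA and likewise AGATAG, with TGATAA and also TGATAG as the others. Capitals that read TTATCT are a match on the other strand.
Cpa3, chr3:20242182-20242431: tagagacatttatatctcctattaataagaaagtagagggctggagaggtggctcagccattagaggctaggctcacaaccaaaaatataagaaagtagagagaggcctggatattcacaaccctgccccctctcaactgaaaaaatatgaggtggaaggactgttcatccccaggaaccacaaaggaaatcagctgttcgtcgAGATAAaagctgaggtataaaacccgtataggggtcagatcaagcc
Fcer1a, chr1:173227230-173227479: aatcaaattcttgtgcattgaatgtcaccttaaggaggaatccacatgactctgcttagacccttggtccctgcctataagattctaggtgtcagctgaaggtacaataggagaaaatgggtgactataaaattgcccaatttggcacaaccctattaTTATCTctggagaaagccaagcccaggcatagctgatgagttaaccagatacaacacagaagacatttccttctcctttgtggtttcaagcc
Ms4a2, chr19:11623720-11623969: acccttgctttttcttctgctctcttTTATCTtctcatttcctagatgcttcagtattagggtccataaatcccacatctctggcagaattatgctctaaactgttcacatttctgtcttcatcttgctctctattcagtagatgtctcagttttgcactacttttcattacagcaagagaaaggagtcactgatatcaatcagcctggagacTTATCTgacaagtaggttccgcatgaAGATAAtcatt
Epx, chr11:87875537-87875786: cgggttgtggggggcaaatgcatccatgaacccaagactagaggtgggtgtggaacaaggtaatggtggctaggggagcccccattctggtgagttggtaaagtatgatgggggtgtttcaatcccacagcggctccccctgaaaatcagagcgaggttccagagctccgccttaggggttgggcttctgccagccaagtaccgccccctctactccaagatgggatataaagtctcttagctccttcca
Cpa3 and Fcer1a each held 1 match and Ms4a2 held 3, of which 1 began 11 bases and 1 began 37 bases before the start, while none of these letters occurred in the Epx window. Of the 8 RefSeq promoters of 7 member genes, 4 held a match, and 26.5% of 32851 promoters of this length did. The match beyond Cpa3, Fcer1a and Ms4a2 was in Hdc, a gene also found on BM polysomes, whose sequence is not shown. At least 2 matches, as in Ms4a2, occurred in 6.4% of all promoters. A match is a description of the letters and says nothing on binding. Prg2 was not matched to a promoter.

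Of 15 genes for signalling partners of FcεRI and for cytokine receptors of these cells, 13 were tested, and 7 were higher and 1 lower than BM in total RNA of either sorted population, where 20.5% (LY6C) and 21.5% (LY6G) of all genes were called higher. On polysomes 6 were higher and 1 lower in either population, against 20.2% and 22.1% called higher over all genes. The largest rises were in Csf2rb, Csf2rb2 and Fcer1g. Csf2rb encodes the shared β chain of the receptors for interleukin 3, interleukin 5 and GM-CSF, and Csf2rb2 a β chain of the interleukin 3 receptor. Fcer1g encodes the γ chain that FcεRI shares with other Fc receptors. Csf2rb was higher by 5.33 ± 0.44 on the log2 scale in LY6C total RNA (edgeR, adjusted p = 6.01e-08) and by 5.92 ± 0.45 in LY6G (adjusted p = 1.51e-08), and Fcer1g by 4.33 ± 0.78 and 4.09 ± 0.78. Lat, an adaptor of mast cells and T cells, was the gene that fell, by −4.77 ± 0.73 and −5.78 ± 0.75. Monocytes, macrophages and neutrophils also express Csf2rb, Csf2rb2 and Fcer1g. Of the 7 monocyte and macrophage markers, 5 were higher in LY6C and 6 in LY6G total RNA, from a summed level of 97.0 to 103 CPM in BM total RNA to 731 to 1907 CPM in LY6C and 1300 to 1780 CPM in LY6G, and none of the 7 was at 0 in any group. Their part in the result was not tested.

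Hdc was lower in both sorted populations than in BM on polysomes, and no difference was called in total RNA. It lies on chromosome 2 from 126593667 to 126619299 on the reverse strand, with 6389 exonic bases. LY6C cells had 4.62, 7.04 and 10.5 CPM in total RNA and 3.88, 9.72 and 20.6 CPM on polysomes, and LY6G cells had 5.49, 3.79 and 6.93 CPM in total RNA and 4.42, 3.59 and 9.54 CPM on polysomes. BM polysomal RNA held 61.3, 21.4 and 20.7 CPM, above all sorted polysomal libraries, though the lowest BM value and the LY6C library numbered 6 lay only 20.7 to 20.6 CPM apart. In BM total RNA there were 0, 3 and 1 counts.

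On polysomes Hdc was lower than in BM by −2.57 ± 0.59 in LY6G (edgeR, adjusted p = 0.00213) and by −1.62 ± 0.57 in LY6C (adjusted p = 0.0375). The LY6C call was lost when a library was left out, at −1.18 ± 0.57 without LY6C_P number 2 (adjusted p = 0.142), −1.49 ± 0.67 without LY6C_P number 3 (0.101), −1.59 ± 0.59 without LY6G_T number 2 (0.0501) and −0.98 ± 0.59 without BM_P number 1 (0.249). Without the libraries numbered 6 it was −2.54 ± 0.53, and the LY6G difference −3.24 ± 0.55. The LY6G difference was −1.83 ± 0.59 without BM_P number 1 (adjusted p = 0.0257). With Prg2 and Hdc, 2 of the 8 genes were called lower in LY6C polysomal RNA, where 11.2% of all genes were, and with Epx 3 of 8 in LY6G polysomal RNA, where 15.3% were. With the replicate number as a block it was 4 of 8 in both, with Epx in LY6C and Gata2 in both as the additions, where 13.7% and 17.2% of all genes were lower. Leaving out number 6 gave the same 4 genes in both. In total RNA Hdc did not differ from BM by the test, at 1.54 ± 1.02 in LY6C (adjusted p = 0.284) and 1.10 ± 1.04 in LY6G (adjusted p = 0.453).

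**Figure D3:**
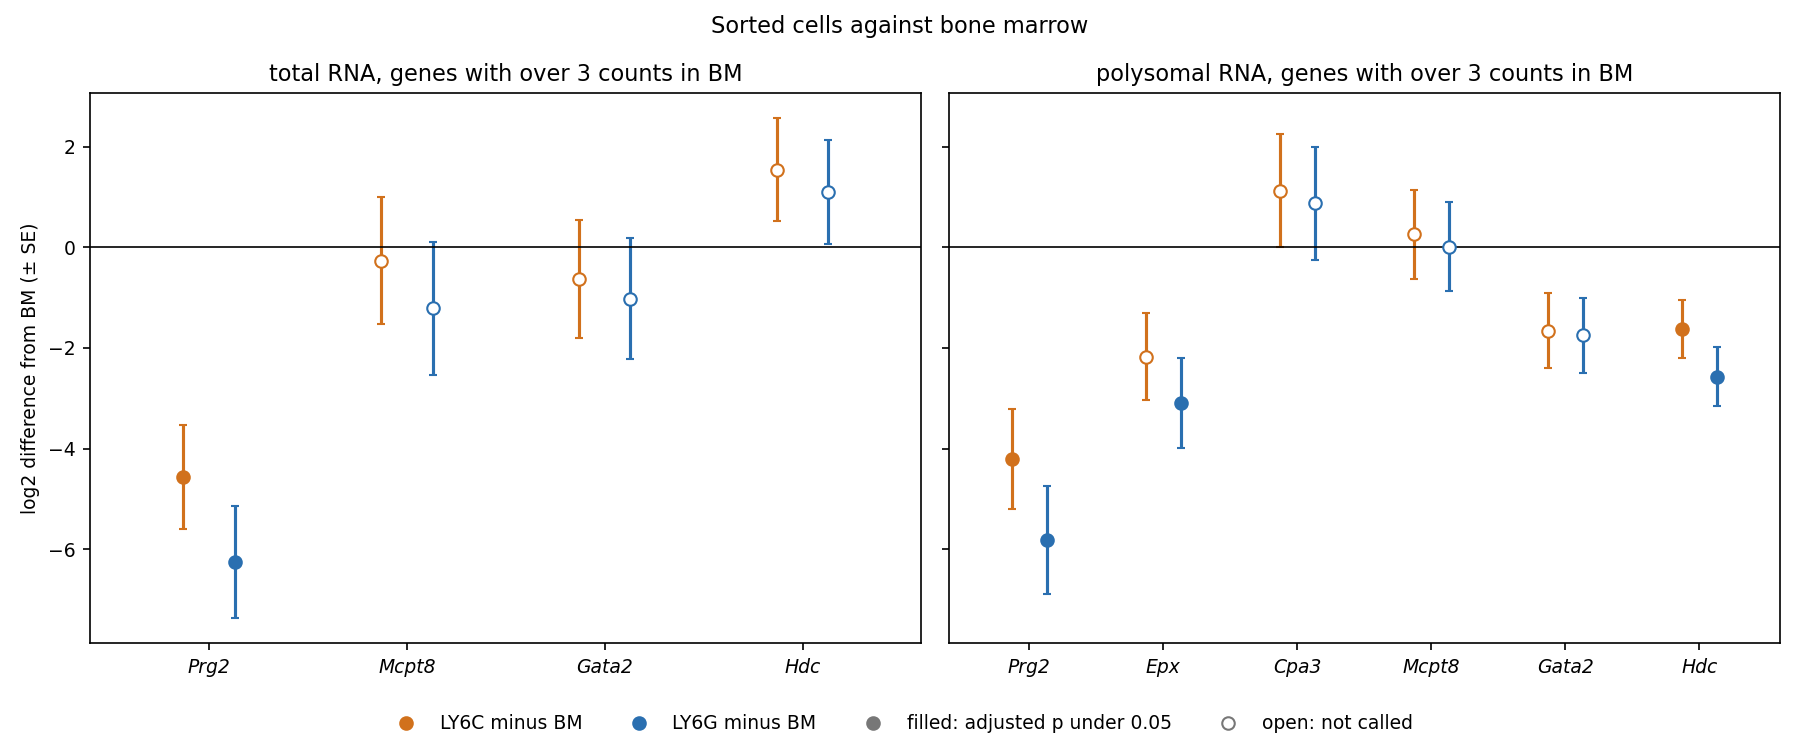
Log2 differences from BM (± SE) of the members with more than 3 counts in the BM group, in total RNA (left) and polysomal RNA (right), for LY6C and LY6G. Filled symbols, an adjusted p under 0.05, mark Prg2 in all 4 comparisons, Hdc on polysomes in both populations and Epx on polysomes in LY6G.

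Genes for making and storing mediators gave a mixed picture. Of 13 genes, 12 were tested. In total RNA 4 were higher and 0 lower in either population, where 20.5% (LY6C) and 21.5% (LY6G) of all genes were called higher and 7.4% and 9.39% lower. On polysomes 4 were higher and 2 lower in LY6C, where 20.2% of all genes were higher and 11.2% lower. In LY6G polysomal RNA 4 were higher and 1 lower, where 22.1% of all genes were higher and 15.3% lower. Ptgs2, the inducible cyclooxygenase gene, had 0 counts in BM total RNA and was at least 21.4-fold higher in LY6C and 29.4-fold higher in LY6G total RNA. On polysomes it was 27.5-fold and 32.3-fold higher (edgeR, adjusted p = 0.000485 and 0.000259). Alox5ap, the activating protein of leukotriene synthesis, was higher by 2.66 ± 0.34 in LY6C and 2.51 ± 0.33 in LY6G polysomal RNA on the log2 scale. Rab27b, a GTPase of granule secretion, was lower by −5.22 ± 1.13 and −5.54 ± 1.10. In LY6C polysomal RNA Hpgds, the prostaglandin D2 synthase gene of mast cells, was lower by −2.88 ± 0.92 (adjusted p = 0.0212), a call that was lost with the replicate block (adjusted p = 0.612). Il4 and Il13 had 79 and 77 counts in sorted cells and 0 in BM. The depth of BM was too low for these 0 counts to show a lower level.

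Gata2, on chromosome 6 from 88193891 to 88207032 on the forward strand, did not pass the test in any comparison. BM total RNA held 0, 2 and 2 counts and BM polysomal RNA 2.57, 5.20 and 6.67 CPM. LY6C cells had 1.55, 0.942 and 2.41 CPM in total RNA and 1.76, 1.14 and 1.59 CPM on polysomes, all below BM polysomal RNA. LY6G cells had 1.01, 0.364 and 2.36 CPM in total RNA and 0.826, 0.395 and 3.02 CPM on polysomes, where number 6 reached into the BM range. The log2 differences on polysomes, −1.66 ± 0.75 in LY6C (edgeR, adjusted p = 0.097) and −1.75 ± 0.74 in LY6G (adjusted p = 0.0697), did not pass the test. With the replicate block they did, at −1.49 ± 0.49 (adjusted p = 0.0201) and −2.06 ± 0.49 (adjusted p = 0.00217), and without the libraries numbered 6 they were −1.84 ± 0.63 (adjusted p = 0.0346) and −3.07 ± 0.66 (adjusted p = 0.00125).

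All 13 other regulators on the list were tested. In total RNA 2 rose and 3 fell in LY6C, against 20.5% and 7.4% of all genes, and 2 rose and 4 fell in LY6G, against 21.5% and 9.39%. On polysomes 3 rose and 4 fell in LY6C, against 20.2% and 11.2%, and 3 rose and 6 fell in LY6G, against 22.1% and 15.3%. The counts of those that rose were near these shares. The median over the list was −0.21 and −0.51 on polysomes, below the median of all genes at 0.52 and 0.45. The largest falls were in Zfpm1, the GATA cofactor FOG-1, by −6.90 ± 0.39 in LY6C and −7.12 ± 0.39 in LY6G polysomal RNA, and in Gata1, which drives erythroid, megakaryocyte, eosinophil and mast cell genes, by −6.35 ± 1.18 and −6.12 ± 1.11. Tal1, a regulator of blood progenitors and red cells, was lower by −3.09 ± 0.41 and −3.17 ± 0.40. Mitf, needed for mast cells and also expressed by macrophages, had 0 counts in BM and was at least 32.3-fold higher in LY6C and 51.0-fold higher in LY6G polysomal RNA. Zfpm1, Gata1 and Tal1 are also erythroid genes, and all 6 erythroid markers tested fell with them on polysomes. The sum of the 7 on the list went from 399.8 to 606 CPM in BM to 0.125 to 0.378 CPM in sorted polysomal RNA, where Epb42 was at 0. Their part in the result was not tested.

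Between the sorted populations, none of the 8 genes differed by the test in either fraction, and none of the 14181 genes did. At an unadjusted p under 0.05 there were 565 genes in total RNA and 833 on polysomes, and DESeq2 called 0 in both. In total RNA all 8 members had a log2 difference of LY6G minus LY6C below 0, with a median of −1.09 against 0.00 over all genes, and on polysomes 7 of 8 did, with a median of −0.58 against −0.03. Prg2 had −1.70 ± 0.92 in total RNA (unadjusted p = 0.0839, adjusted p = 1) and −1.61 ± 0.90 on polysomes (unadjusted p = 0.0937, adjusted p = 0.845). Epx had −1.52 ± 0.85 and −0.92 ± 0.82. The LY6G libraries of Prg2, Epx and Fcer1a lay below all LY6C libraries in total RNA, for Fcer1a on counts of 8, 1 and 4 against 21, 2 and 3. None of the 8 genes kept its groups apart on polysomes. The share of all genes with groups apart was not counted, so nothing is read from these numbers. Within replicate numbers, which pair the sorted libraries, Prg2 and Epx were lower in LY6G in 3 of 3 pairs in both fractions. In total RNA so were Cpa3, Mcpt8, Gata2 and Fcer1a. The share of all genes lower in every pair was not counted either, so nothing is read from these pairs. With the number as a block, edgeR gave Prg2 −1.69 ± 0.44 in total RNA (unadjusted p = 0.00121, adjusted p = 0.249) and −1.55 ± 0.42 on polysomes (unadjusted p = 0.00166, adjusted p = 0.143). Epx with the block had −1.91 ± 0.45 (unadjusted p = 0.000529, adjusted p = 0.249) and −1.30 ± 0.41 (unadjusted p = 0.00534, adjusted p = 0.173), so that no call was made. Without the libraries numbered 6 the values moved to −1.65 ± 0.42 and −1.52 ± 0.41 for Prg2 and to −2.25 ± 0.53 and −1.84 ± 0.50 for Epx, with adjusted p of at least 0.354. A p that misses the threshold does not show that the populations are alike.

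In LY6C, but not in LY6G, different replicates were the highest for Prg2 and Epx and for 4 basophil and mast cell genes. Prg2 and Epx were both highest in number 6 in all 4 sorted groups. In LY6C, Cpa3, Mcpt8, Fcer1a and Ms4a2 were all highest in number 2, in total RNA and on polysomes. In LY6G, 3 of these 4 were highest in number 6 in total RNA and all 4 on polysomes. LY6C number 2 was much deeper, at 110.4 (total) and 102.8 (polysomal) counts per CPM, against 18.1 to 39.4 in LY6C numbers 3 and 6. Its protein-coding share was 93.4% and 93.7%, against 37.3% to 72.4%. Fcer1a in LY6C total RNA had 0.190, 0.111 and 0.125 CPM on 21, 2 and 3 counts, too few to rank the replicates. Other markers did not all follow. Prg3 was highest in number 6 in all 4 sorted groups, as was Hdc, but Siglecf was highest in number 2 in all 4. Prss34 and Gata2 were highest in number 6 in LY6C total RNA and in number 2 in LY6C polysomal RNA. Prss34 had 2.95 CPM in number 6 of LY6C total RNA, against 2.29 CPM in number 2. The proportion of Mcpt8 to Epx can be read within a library, where scaling cancels, but it cannot show which replicate was highest for either gene. LY6C polysomal RNA held 1.76 (exact 95% counting interval 1.49 to 2.08), 0.863 (0.606 to 1.23) and 0.111 (0.0686 to 0.170) Mcpt8 counts per Epx count in numbers 2, 3 and 6. LY6C total RNA held 1.89, 0.629 and 0.591. LY6G polysomal RNA held 1.62, 1.02 and 0.723, and LY6G total RNA 2.23, 2.18 and 1.07. The lowest proportion was in number 6 in each of the 4 groups. The intervals of numbers 3 and 6 overlapped in 3 of the 4, namely LY6C total RNA (0.351 to 1.10 and 0.387 to 0.891), LY6G polysomal RNA (0.669 to 1.56 and 0.630 to 0.830) and LY6G total RNA (1.20 to 4.12 and 0.819 to 1.41). This pattern was seen after the values were known and is given as a description.

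Polysomal and total RNA were compared within each kind of cell. Hdc in BM was the only member called, with a log2 difference of 3.79 ± 0.92 (edgeR, adjusted p = 0.0314), where 2.6% of all genes were called higher. The value rests on 4 counts in BM total RNA. It was lost with median-ratio factors (3.36 ± 0.93, adjusted p = 0.0793), without BM_P number 1 (3.02 ± 0.92, 0.109) and without BM_T number 1 (3.20 ± 0.99, 0.0815), number 2 (5.01 ± 1.33, 0.0667) or number 3 (3.61 ± 1.09, 0.0886). Epx rose from 3 counts to 161, a ratio of pooled levels of 10.4 (exact 95% counting interval 3.50 to 51.0), which did not pass the test (adjusted p = 0.203) except with the replicate block (3.23 ± 0.91, adjusted p = 0.0469, with 4.39% of all genes higher) and without the libraries numbered 6 (3.22 ± 0.76, adjusted p = 0.036). The block takes the BM numbers as pairs, which was not shown. Prg2 had polysomal to total ratios of 1.81, 3.14 and 2.48 in BM, with 1.24 ± 0.91 on the log2 scale (adjusted p = 0.505).

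In LY6C and LY6G no member differed between polysomal and total RNA, and no gene did. At an unadjusted p under 0.05 there were 433 genes in LY6C and 254 in LY6G, and DESeq2 called 6 and 4. The ratios of single replicates were far apart for the eosinophil genes. Prg2 had polysomal to total ratios of 0.940, 1.21 and 4.79 in LY6C and 1.45, 0.980 and 5.20 in LY6G. Epx had 1.23, 0.955 and 3.17 in LY6C and 1.33, 1.68 and 3.74 in LY6G. For both genes the ratios in numbers 2 and 3 lay between 0.940 and 1.68, and those in number 6 above 3. Without number 6 the log2 difference of Prg2 was 0.12 ± 0.40 in LY6C and 0.25 ± 0.41 in LY6G. Hdc had 0.840, 1.38 and 1.97 in LY6C and 0.804, 0.947 and 1.38 in LY6G.

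Cpa3 and Mcpt8 followed the eosinophil genes in LY6G number 6, with ratios of 3.11 and 2.52, but not in LY6C number 6, with 1.16 and 0.593. Short genes as a class moved in number 6. The median ratio over 1526 tested protein-coding genes of up to 2000 exonic bases was 1.73 in LY6C number 6 and 1.25 in LY6G number 6, against 0.916 and 0.938 over genes longer than 4000 bases, while numbers 2 and 3 gave 1.02 to 1.16 for both classes. Prg2, Cpa3 and Mcpt8 are of the short class and Epx is not. The part of gene length in the ratios of number 6 was not tested. The difference between cell kinds in polysomal minus total RNA was tested for all 8 genes and called for none by edgeR, where 0.338% of all genes were called for LY6C against BM, 0.416% for LY6G against BM and 0% for LY6G against LY6C. Hdc came nearest, at −3.67 ± 1.11 in LY6G against BM (edgeR, adjusted p = 0.143) and −3.16 ± 1.13 in LY6C against BM (adjusted p = 0.215).

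**Figure D4:**
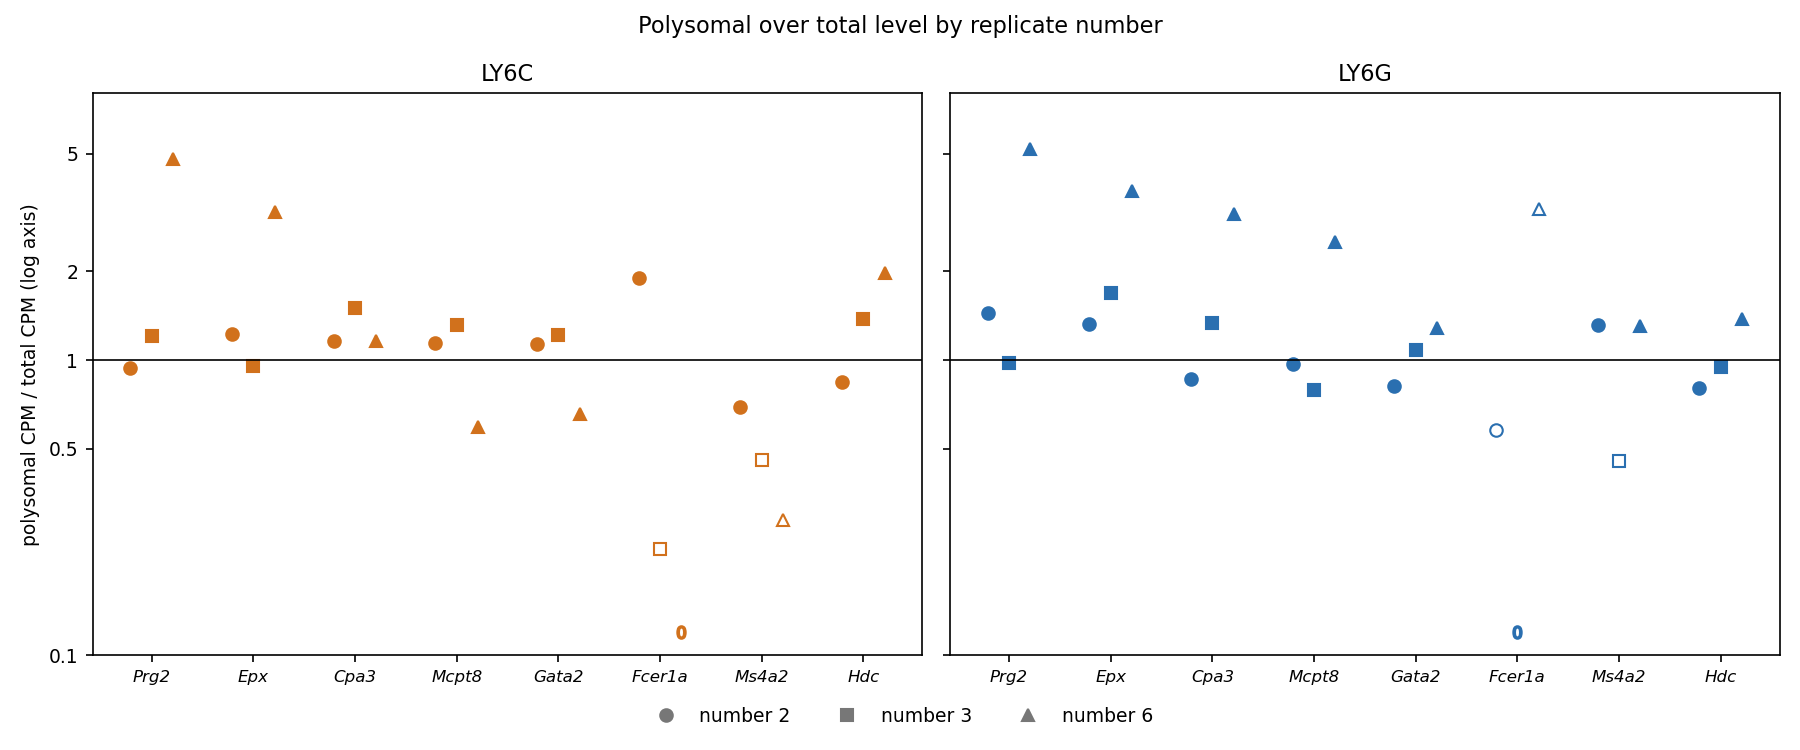
Polysomal CPM over total CPM of each member (log axis) in LY6C (left) and LY6G (right) by replicate number, with open symbols where either library had fewer than 10 counts and 0 marking a polysomal count of 0. Prg2 and Epx lie between 0.940 and 1.68 in numbers 2 and 3 and between 3.17 and 5.20 in number 6.

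The genes whose log2 CPM ran most alike over the 18 libraries were sought among 5624 genes with a group mean of at least 10 CPM, by Pearson's correlation, as a description. With Prg2 these were Ddrgk1 (r = 0.980), Foxo3 (0.978), Sox4 (0.974), Otud5 (0.973) and Apobr (0.966). With Cpa3 they were Srrm2 (0.898), Ints3 (0.894), Filip1l (0.890), Fabp5 (0.889) and Pag1 (0.883). With the mean of the 8 members they were Furin (0.754), Ubr2 (0.751), Zbtb7a (0.748), Kdm5b (0.739) and Med13l (0.733). Libraries of a group share their cells and their depth, which these values include. The lists for Prg2 and for Cpa3 share no gene.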

How the data were processed

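The authors deposited raw counts of 54838 genes in 18 libraries. Per the submitters' processing notes, FastQC, STAR 2.5.2a, DESeq and DESeq2 were used with GRCm38 (mm10). The counting program, annotation and strand setting are not given in the sources used here. Per the labels' protocols, libraries were stranded and depleted of ribosomal RNA.

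Gene names and coordinates came from GENCODE M21 (54809 identifiers matched, 29 did not). The model was fitted to the counts with edgeR 4.0.16 (R 4.3.3) with 6 group means, TMM factors, filterByExpr (minimum count 10, 14181 genes) and robust quasi-likelihood F tests. P values were adjusted by Benjamini-Hochberg over all genes in each of 12 comparisons and called under 0.05. Log2 CPM used a prior count of 2. A group at 0 was given a limit of 3 counts at 95% confidence, and a ratio on 1 to 3 counts its exact interval. Correlations, within-library ratios and promoter matches are descriptions. Named genes were the 8 members, at most 3 called genes a direction in 13 lists, defining markers, and the 5 genes most alike in pattern. Il5ra, the proteases and cytokines not called, and the Mcpt8 per Epx proportion were named after their values were seen. Members and lists were chosen with earlier results of these data known.

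Replicate numbers come from the sample names. Deviations from the group means correlated at 0.267 to 0.737 in all 12 pairs of sorted libraries that share a number. This is over the threshold of 0.1, so the numbers pair them. In BM the correlations were 0.00465 to 0.0270, which does not show pairs. The replicate block nevertheless had terms for the BM numbers too, so its values against BM and within BM treat them as pairs. The planned fit has no block. The fit was tested on simulated counts with known changes. Alternatives were DESeq2 1.42.0, median-ratio factors, protein-coding library size, 2 filters, a fit of the compared libraries, the replicate block, leaving out each library and, chosen after seeing the data, leaving out number 6. Figures were drawn with matplotlib 3.10.9.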

Additional observations from a re-analysis of the deposited data

How the results depend on the processing

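Of 624 counts of called members under the alternatives, 605 stayed within 1.5 times the reported count and 19 moved. Prg2 was called lower than BM in all 4 comparisons under every alternative run, with an adjusted p of at most 0.022, and so were Epx (at most 0.0431) and Hdc (at most 0.0257) in LY6G polysomal RNA. None of the 8 called differences of members reversed. Genes of the lists were refitted with the replicate block alone. For LY6C minus BM on polysomes, the 2 members lower became 4 with protein-coding library size, with no filter, with the replicate block, with the compared libraries alone and without number 6, and ran from 1 to 3 when single libraries were left out. For polysomal minus total RNA in BM, the 1 member higher became 0 with median-ratio factors and 2 with no filter, with the replicate block and without number 6, and ran from 0 to 1 when single libraries were left out. With no filter, 1 member was higher on polysomes in LY6G (Prg2, 1.75 ± 0.42) and 1 lower for the difference of LY6G against BM (Hdc, −3.53 ± 0.82), against 0 in each. The block changed no other count of members by more than 1.5 times.

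Scaling of BM is uncertain. The median log2 difference of all genes from BM ran from 0.18 to 1.88 in LY6C and 0.32 to 1.94 in LY6G total RNA. These ranges cover the planned fit and the alternatives other than leaving out single libraries or number 6. Without BM_T number 1 the median was 2.12 in LY6C total RNA. The share of calls that were higher was 73.5% in LY6C total RNA, but 62.6% with median-ratio factors, 49.7% with protein-coding library size and 57.1% with DESeq2. In LY6G total RNA it was 69.6%, 51.2% with protein-coding library size and 59.5% with DESeq2. In LY6C polysomal RNA it was 64.2% and 46.2% with protein-coding library size. For polysomal minus total RNA in BM it was 76.5%, against 33.5% with median-ratio factors, 34.4% with protein-coding library size and 16.8% with DESeq2. With no filter, LY6G minus LY6C gave 76 genes in total RNA and 88 on polysomes. The causes were not tested. Depth in BM total RNA limits all members but Prg2.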
